A study of Homo sapiens with 6 samples.

Results

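The autophagy genes described here are 42 named components of the machinery that encloses cytoplasm in a membrane and delivers it to the lysosome, together with the receptors that select cargo for it. They were taken by symbol from a table of 61852 genes, and all 42 were found. Of these, 31 had a mean of at least 200 counts over the 6 libraries and were tested. The other 11 are given as values without a test, because each deposited value appears to hold an added number of 0, 1, 2, 10 or 100.

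The libraries are poly(A)-selected RNA-seq of MEG-01, an established human megakaryoblast line from a chronic myeloid leukaemia, in 2 groups of 3. The control cells carry the pLKO.1 vector, and the knockdown cells carry sh2-MELK, a short hairpin RNA directed at the kinase gene MELK. All 6 libraries share the cell line and the batch label F5. The labels name a single hairpin, and the time after transduction is not given in the sources used here. The replicates are called biological in the labels, but nothing says that they were separate transductions, and the p-values then describe only how these libraries vary, which may be technical.

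In autophagy, the ULK kinase complex starts the process when nutrients or energy run low. A lipid kinase complex built around BECN1 and PIK3C3 then marks the forming membrane, and ATG2 and ATG9 proteins supply it with lipid. A ubiquitin-like conjugation system attaches proteins of the ATG8 family (the LC3 and GABARAP proteins) to the membrane, and cargo receptors bind those proteins. Blood cells of the erythroid lineage use the pathway to clear mitochondria and other organelles as they mature.

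MELK had 219, 206 and 238 counts in control libraries 1 to 3 and 16, 124 and 26 in the knockdown ones, so every knockdown library lay below every control library. With the added numbers modelled, MELK averaged 11.4 CPM without and 1.10 CPM with the knockdown (in CPM, the usual depth-scaled count, here relative to the total of the genes tested times the TMM factor), a log2 difference of -3.38 (95% interval -3.87 to -2.96). The deposited values averaged 11.6 ± 0.53 and 2.94 ± 3.10 CPM (SD, n = 3). The modelled size thus rests on the 124 in knockdown library 2 holding an added 100. With a mean of 138 counts, MELK was under the minimum and was not tested. Totals ran from 18945176 to 21711313 counts. Of 10 megakaryocytic markers, 7 had a mean of at least 200 counts, while PF4, GP9 and GP1BB did not. The 10 together summed to 3375 to 3479 CPM over the control libraries and 2697 to 2768 CPM over the knockdown ones. Of the 7, 5 were lower, ITGA2B holding most of the sum (2137 ± 66.6 to 1126 ± 17.2 CPM, SD, n = 3), and TAL1 and FLI1 were higher (log2 fold changes of 0.88 and 0.68). Of 11 lymphoid, fibroblast and epithelial markers, 2 keratin genes passed that minimum, and the sum was 84.1 to 91.0 CPM over the control libraries and 109 to 117 CPM over the knockdown ones. KRT18 was higher (0.53) and KRT8 lower (-0.33, a call lost after the GC and length correction described below), and the other 9 markers in the sum had mean counts that an added 100 can make up in large part. The part of these shifts in the results below was not tested. In bulk RNA, more cells with a transcript and more transcript per cell cannot be told apart.

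Most of the autophagy genes tested were higher in the knockdown. In edgeR's quasi-likelihood test, with Benjamini-Hochberg adjusted p below 0.05 over all 7344 genes tested, 21 of the 31 rose, 1 fell and 9 did not pass. Over all genes tested, 34.1% were higher and 34.4% lower (68.5% in either direction), against 67.7% and 3.23% of the autophagy genes. Their median log2 fold change was 0.33, and that of all genes tested was 0.00. The sum of the 31 genes was 2403 to 2454 CPM over the control libraries and 2959 to 2998 CPM over the knockdown ones.

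**Figure D1:**
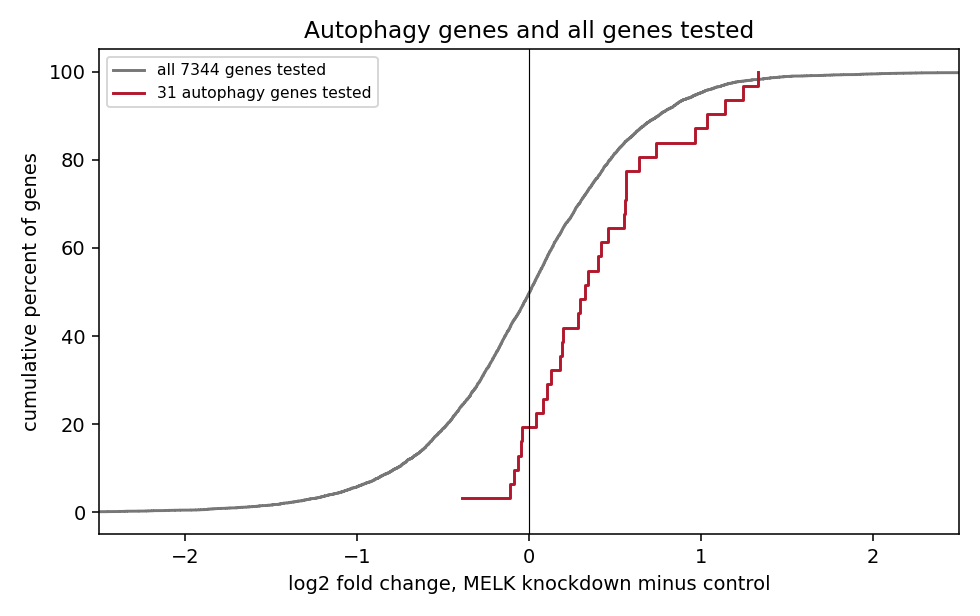
Cumulative percent of genes (vertical axis) against log2 fold change, knockdown minus control (horizontal axis, cropped at 2.5 on both sides), for all 7344 genes tested (grey) and the 31 autophagy genes tested (red). The red line lies to the right of the grey line over nearly its whole length, with medians of 0.33 and 0.00.

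The changes were mostly modest. Among the 21 genes that rose, 11 had a log2 fold change of at least 0.5, which 18.3% of all genes tested reached as called increases, and 4 had at least 1, which 4.79% reached. These 4 were ATG16L1, ATG5, CALCOCO2 and GABARAPL1. The 3 libraries of a group lay wholly beyond those of the other group in 22 of the 31 genes (72.1% of all genes tested). ATG5 was the single one of the 31 whose mean was under 200 counts in the control and above it in the knockdown. Without it, 20 of 30 rose and 1 fell. Raising the minimum mean to 500 left 23 autophagy genes, of which 17 were higher and 1 lower, against 38.1% higher and 38.9% lower of all genes at that minimum.

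**Figure D2:**
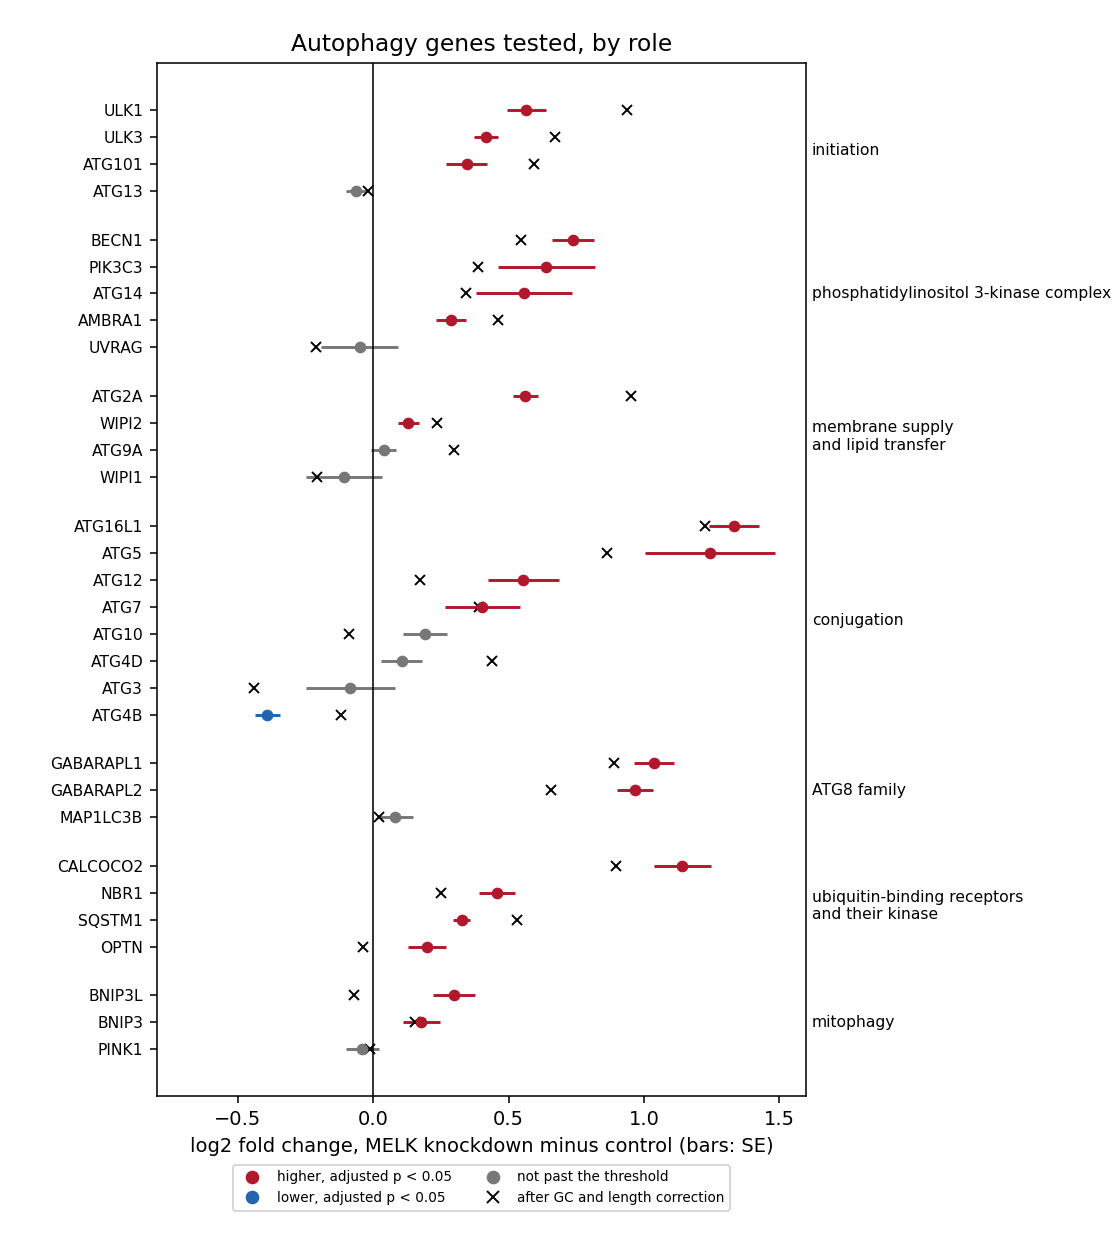
Log2 fold change, knockdown minus control, of the 31 autophagy genes tested, in blocks by role, with the standard error as a bar. Red marks genes that rose, blue the gene that fell and grey those not past the threshold, and crosses give the value after correction for GC content and length. All but 6 of the 31 points lie to the right of 0.

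Fold change was related to base composition in these libraries. Across all genes tested, genes of higher GC content had lower log2 fold changes (Spearman rho -0.384), and across the 31 autophagy genes rho was -0.321. Both are descriptions across genes that share the same 6 libraries. Median GC content of the longest transcript was 49.4% in the autophagy genes and 51.4% in all genes tested. With the trends on GC content and length taken out of each library, 18 of the 31 rose and 2 fell, against 35.0% higher and 31.5% lower over all genes, and the median was 0.34. Below, the corrected value is given for each named gene past the threshold where it ends the call or moves the fold change by more than 1.5 times, and for each one not past it where it adds a call or turns the direction.

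**Figure D3:**
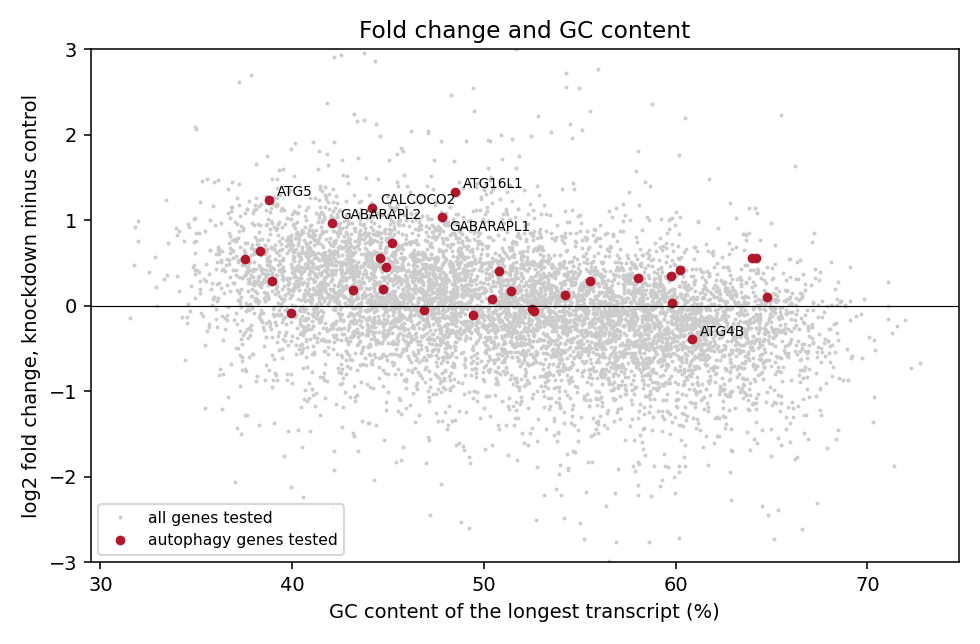
Log2 fold change, knockdown minus control (vertical axis, cropped at 3 on both sides), against GC content of the longest transcript in percent, for all genes tested (grey) and the 31 autophagy genes tested (red). The grey cloud slopes downward (rho -0.384), and ATG16L1, with the highest value of the red points, lies in its upper part while ATG4B lies inside it.

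Among the genes of initiation, 3 of the 4 tested rose, 0 fell and ATG13 did not pass. ULK1 (chromosome 12, 131894651 to 131923167, GRCh38) encodes the kinase that starts autophagy. It stood at 50.9, 46.0 and 47.2 CPM in control libraries 1 to 3 and at 67.4, 76.7 and 69.2 CPM in the knockdown ones. The groups did not overlap, and the log2 fold change was 0.57 ± 0.07 (SE, edgeR adjusted p = 4.35e-06). ULK3, a related kinase, rose by 0.42 ± 0.05 from 133 ± 4.65 to 177 ± 7.75 CPM (SD, n = 3, edgeR adjusted p = 9.17e-07). ATG101, which stabilizes ATG13 in the complex, rose by 0.34 ± 0.08 (edgeR adjusted p = 0.000938).

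The scaffold subunit ATG13 was at 197, 186 and 201 CPM in control libraries 1 to 3 and at 183, 191 and 185 CPM in the knockdown ones. Its groups overlapped, with a log2 fold change of -0.06 ± 0.04 (edgeR adjusted p = 0.183). The GC and length correction raised ULK1 to 0.94, ULK3 to 0.67 and ATG101 to 0.59. ULK2 and RB1CC1, the ULK1 paralogue and the large scaffold also called FIP200, had too few counts to be tested.

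In the lipid kinase complex, 4 of the 5 genes tested rose, 0 fell and UVRAG did not pass. BECN1 (chromosome 17, 42810134 to 42833350), the scaffold of the complex, was at 53.7, 66.6 and 56.8 CPM in control libraries 1 to 3 and at 92.2, 96.4 and 107 CPM in the knockdown ones. Its groups were well apart, and it rose by 0.74 ± 0.08 (edgeR adjusted p = 6.51e-07). PIK3C3, the catalytic subunit also called VPS34, was at 10.5, 11.5 and 11.7 CPM in control libraries 1 to 3 and at 15.7, 17.9 and 19.0 CPM in the knockdown ones. It rose by 0.64 ± 0.18 (edgeR adjusted p = 0.00524). AMBRA1, a regulator that binds BECN1, rose by 0.29 ± 0.05 from 90.9 ± 5.56 to 111 ± 3.81 CPM (SD, n = 3, edgeR adjusted p = 0.000269).

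ATG14 and UVRAG are alternative partners of BECN1, the former acting on the forming membrane and the latter on endosomes and later steps. ATG14 was at 17.6, 17.7 and 10.9 CPM in control libraries 1 to 3 and at 21.9, 22.9 and 23.2 CPM in the knockdown ones, an increase of 0.56 ± 0.18 (edgeR adjusted p = 0.0122). Control library 3 was the lowest, and without it the increase was 0.37 (edgeR adjusted p = 0.0388). With the added numbers modelled it was 0.93. UVRAG was at 17.8, 18.2 and 18.4 CPM in control libraries 1 to 3 and at 17.95, 17.0 and 17.6 CPM in the knockdown ones, which overlapped (-0.05 ± 0.14, edgeR adjusted p = 0.771).

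The calls of PIK3C3 and ATG14 were lost after the GC and length correction (0.39, adjusted p = 0.0685, and 0.34, adjusted p = 0.106), and AMBRA1 moved to 0.46. PIK3R4, the regulatory subunit, was not tested.

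Among the genes that supply membrane, 2 of the 4 tested rose and 0 fell. ATG2A (chromosome 11, 64894546 to 64917248), a lipid-transfer protein, was at 114, 106 and 112 CPM in control libraries 1 to 3 and at 170.0, 166 and 155 CPM in the knockdown ones. That was an increase of 0.56 ± 0.05 with no overlap (edgeR adjusted p = 5.49e-08), and of 0.95 after the GC and length correction. WIPI2, which binds the lipid made by PIK3C3 and recruits ATG16L1, rose by only 0.13 ± 0.04 from 166 ± 3.48 to 182 ± 4.47 CPM (SD, n = 3, edgeR adjusted p = 0.00859). With the added numbers modelled its adjusted p was 0.0768, while the GC and length correction gave 0.24.

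ATG9A, a membrane protein that scrambles lipids, was at 192, 173 and 171 CPM in control libraries 1 to 3 and at 188, 185 and 179 CPM in the knockdown ones (0.04 ± 0.05, edgeR adjusted p = 0.482). It passed without control library 1 (0.10, edgeR adjusted p = 0.0394) and after the GC and length correction (0.30, adjusted p = 4.43e-06). In GENCODE 29, 38.8% of its exon bases lie in exons of another gene on the same strand; the effect on its count was not tested. WIPI1 averaged 22.2 ± 2.64 CPM without and 20.5 ± 2.12 CPM with the knockdown (SD, n = 3) and did not pass.

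The conjugation genes held both the largest increases and the one decrease, with 4 of 8 tested higher, 1 lower and 3 not past. ATG16L1 (chromosome 2, 233210051 to 233295674) directs the ATG12 and ATG5 conjugate to the membrane. It was at 27.4, 27.6 and 34.6 CPM in control libraries 1 to 3 and at 73.0, 71.4 and 81.4 CPM in the knockdown ones. That is 2.52-fold, a log2 fold change of 1.33 ± 0.09 (edgeR adjusted p = 5.67e-09), and 1.22 after the GC and length correction.

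The partners of ATG16L1 were higher as well. ATG5 was at 11.5, 6.09 and 7.81 CPM in control libraries 1 to 3 and at 20.4, 16.2 and 23.7 CPM in the knockdown ones, an increase of 1.24 ± 0.24 (edgeR adjusted p = 0.00029). Its counts are low enough that the added numbers weigh on single values, and the modelled increase was 1.44 (95% interval 1.11 to 1.67). ATG12, the ubiquitin-like protein joined to ATG5, was at 17.0, 16.4 and 17.9 CPM in control libraries 1 to 3 and at 26.2, 22.9 and 26.3 CPM in the knockdown ones. It rose by 0.55 ± 0.13 (edgeR adjusted p = 0.00147), and lost its call after the GC and length correction (0.17, adjusted p = 0.248).

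ATG7, the E1-like enzyme that activates ATG12 and the ATG8 proteins, rose by 0.40 ± 0.14 from 19.8 ± 2.39 to 26.2 ± 3.34 CPM (SD, n = 3, edgeR adjusted p = 0.0172). Leaving out control library 1, control library 2 or knockdown library 1 ended its call (edgeR adjusted p = 0.0532, 0.0569 and 0.104). The E2-like enzymes did not pass. ATG3 was at 16.3, 16.9 and 17.6 CPM in control libraries 1 to 3 and at 15.7, 13.9 and 18.3 CPM in the knockdown ones (-0.09 ± 0.16, edgeR adjusted p = 0.661), and was lower after the GC and length correction (-0.44, adjusted p = 0.0246). ATG10 averaged 57.3 ± 6.93 CPM without and 65.4 ± 3.94 CPM with the knockdown (SD, n = 3), just short of the threshold (0.19 ± 0.08, edgeR adjusted p = 0.0527). It passed in 8 of the 17 alternatives, among them those without control library 3 or knockdown library 3 (edgeR adjusted p = 0.00424 and 0.0399), and stood at -0.09 after the GC and length correction (adjusted p = 0.342).

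ATG4B (chromosome 2, 241637213 to 241673857) is the main protease that trims ATG8 proteins before conjugation and releases them afterwards. It was at 148, 136 and 136 CPM in control libraries 1 to 3 and at 108, 107 and 106 CPM in the knockdown ones, and fell by 0.39 on the log2 scale (SE 0.05, edgeR adjusted p = 2.69e-06). All knockdown libraries were below all control libraries. The decrease was smaller after the GC and length correction (-0.12, adjusted p = 0.0133). ATG4D, a relative, averaged 62.7 ± 6.33 CPM without and 67.4 ± 3.69 CPM with the knockdown (SD, n = 3) and did not pass (edgeR adjusted p = 0.235). It passed without control library 1 (edgeR adjusted p = 0.0453) and after the GC and length correction (0.44, adjusted p = 6.18e-05).

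In the ATG8 family, GABARAPL1 and GABARAPL2 rose 2.05-fold and 1.95-fold while MAP1LC3B did not pass. GABARAPL1 (chromosome 12, 10212458 to 10223130) was at 32.5, 37.1 and 35.3 CPM in control libraries 1 to 3 and at 69.5, 71.8 and 73.7 CPM in the knockdown ones. GABARAPL2 (chromosome 16, 75566351 to 75577881) was at 39.4, 42.7 and 41.9 CPM in control libraries 1 to 3 and at 76.4, 82.6 and 83.1 CPM in the knockdown ones. The log2 fold changes were 1.04 ± 0.07 and 0.97 ± 0.07 (edgeR adjusted p = 5.82e-09 and 4.60e-09), and 0.89 and 0.65 after the GC and length correction.

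MAP1LC3B, which encodes the LC3 protein most used as a marker of autophagosomes, was at 77.9, 86.9 and 88.2 CPM in control libraries 1 to 3 and at 82.9, 90.5 and 94.4 CPM in the knockdown ones. The groups overlapped (0.08 ± 0.06, edgeR adjusted p = 0.268), and it passed with library totals alone as scaling (0.15, adjusted p = 0.0453). Per kilobase of annotated exon, MAP1LC3B had the highest mean level of the 3 in the control, 15.9 ± 1.06 CPM against 13.6 ± 0.561 for GABARAPL2 and 8.55 ± 0.567 for GABARAPL1 (SD, n = 3). In the knockdown GABARAPL2 was highest at 26.6 ± 1.23 CPM per kilobase, and GABARAPL1 at 17.5 ± 0.523 and MAP1LC3B at 16.8 ± 1.09 lay within their spread of each other.

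The pseudogene GABARAPL3 and the copy MAP1LC3B2, whose sequences resemble these genes, had mean counts of at most 35.8, near the level of the added numbers. GABARAP and MAP1LC3A were not tested.

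The promoters of these 3 genes are shown because 2 of these members of a single family rose and 1 did not pass. Each is the 250 bases before the RefSeq start (GRCh38.p14), on the plus strand, with every GGGCGG or its reverse complement CCGCCC in capitals, the core of the GC box bound by SP-family factors. They lie at chr12:10212627-10212876, chr16:75566129-75566378 and chr16:87392086-87392335.
GABARAPL1: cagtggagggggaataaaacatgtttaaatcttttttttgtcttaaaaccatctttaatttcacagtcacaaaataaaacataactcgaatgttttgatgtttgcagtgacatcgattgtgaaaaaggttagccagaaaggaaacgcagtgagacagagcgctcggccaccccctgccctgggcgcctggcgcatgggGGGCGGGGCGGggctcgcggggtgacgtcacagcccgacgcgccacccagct
GABARAPL2: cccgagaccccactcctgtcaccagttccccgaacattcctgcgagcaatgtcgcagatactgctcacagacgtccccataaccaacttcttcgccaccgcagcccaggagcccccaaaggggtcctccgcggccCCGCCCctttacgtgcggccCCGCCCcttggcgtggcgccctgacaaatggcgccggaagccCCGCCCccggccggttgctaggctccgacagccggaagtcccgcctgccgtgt
MAP1LC3B: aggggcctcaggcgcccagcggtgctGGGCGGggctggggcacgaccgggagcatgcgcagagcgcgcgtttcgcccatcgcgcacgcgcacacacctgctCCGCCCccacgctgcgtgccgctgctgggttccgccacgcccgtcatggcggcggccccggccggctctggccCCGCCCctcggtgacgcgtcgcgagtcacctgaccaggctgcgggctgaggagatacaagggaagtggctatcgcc
The 3 promoters hold 2, 3 and 3 such matches, counting the overlapping pair in GABARAPL1, and have GC contents of 51.6%, 68.4% and 74.8%. A match lies in 42.6% of all windows of this length before a start, whether or not the gene was tested. With 50 bases from the start on included, it lies in 48.3% of all genes and in 80.05% of genes tested with a window. All 3 promoters have it, that of MAP1LC3B included.

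The promoter of ATG16L1, the gene with the highest fold change, and that of ATG4B, the gene that fell, lie at chr2:233251423-233251672 and chr2:241637443-241637692 on the plus strand and are set out in the same way for comparison.
ATG16L1: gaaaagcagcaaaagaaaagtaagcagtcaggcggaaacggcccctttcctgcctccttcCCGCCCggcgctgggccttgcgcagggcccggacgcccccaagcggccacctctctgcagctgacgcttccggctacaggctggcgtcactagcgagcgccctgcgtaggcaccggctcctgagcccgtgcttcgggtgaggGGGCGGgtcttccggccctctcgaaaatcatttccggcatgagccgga
ATG4B: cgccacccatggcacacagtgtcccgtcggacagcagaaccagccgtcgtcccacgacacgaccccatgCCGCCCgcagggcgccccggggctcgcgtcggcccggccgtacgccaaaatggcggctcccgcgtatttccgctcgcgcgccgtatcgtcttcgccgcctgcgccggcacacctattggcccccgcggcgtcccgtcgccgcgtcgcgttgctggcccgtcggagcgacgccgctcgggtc
They hold 2 and 1 matches and have GC contents of 66.4% and 74.4%. Over the whole window, with 50 bases from the start on, GGGCGG on either strand was found in 26 of the 36 autophagy genes with a RefSeq window (72.2%) and in 80.05% of genes tested with a window.

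The palindrome CACGTG, the E-box core bound by factors such as TFEB and TFE3 that are known for lysosomal and autophagy genes, was in 5 of the 36 genes (13.9%) and in 13.9% of genes tested with a window. The 5 genes are ATG14, ATG3, BNIP3, TBK1 and ULK3. Of these, ATG14, BNIP3 and ULK3 rose, ATG3 did not pass and TBK1 was not tested, beside 67.7% of the autophagy genes tested and 34.1% of all genes tested that rose. The sites before the start are shown with the palindrome in capitals, each as 30 bases of the gene's own strand, at chr14:55411834-55411863, chr3:112561963-112561992, chr10:131982040-131982069, chr12:64452077-64452106 and chr15:74843311-74843340. The strand is plus for TBK1 and minus for the others.
ATG14: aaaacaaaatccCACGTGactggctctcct
ATG3: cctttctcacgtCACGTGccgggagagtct
BNIP3: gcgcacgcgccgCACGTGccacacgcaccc
TBK1: ccggccgtcggtCACGTGgcctccggccag
ULK3: cctccgtatcccCACGTGggccctgcagga
The palindromes start 21, 18, 134, 31 and 172 bases before the RefSeq start. A match is a run of letters and not a site shown to be bound. RB1CC1, ATG4D, BNIP3L, MAP1LC3A, UVRAG and PINK1 had no RefSeq window here and were not searched.

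**Figure D4:**
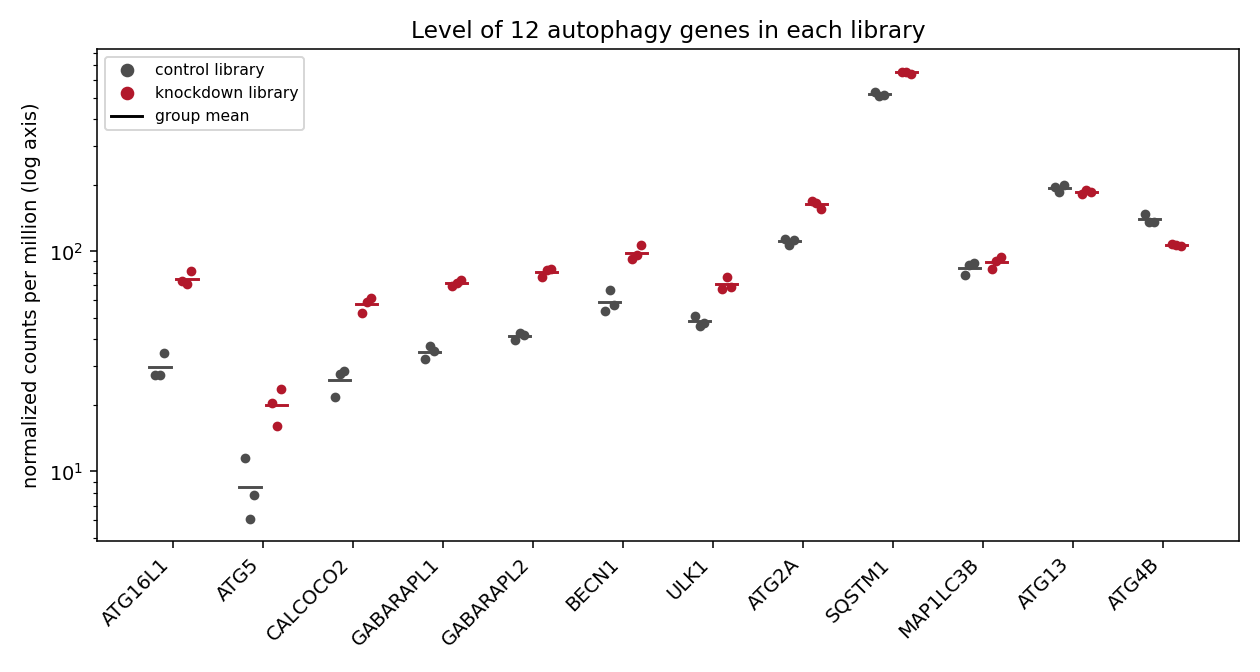
Level in each library (points) and group mean (lines) of 12 autophagy genes, in TMM-normalized CPM on a log axis, with control libraries in grey and knockdown libraries in red. The groups do not overlap for the 9 genes from ATG16L1 to SQSTM1 and for ATG4B, and overlap for MAP1LC3B and ATG13.

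All 4 ubiquitin-binding receptors tested rose, by very different amounts. CALCOCO2 (chromosome 17, 48830988 to 48866522), also called NDP52, takes bacteria and mitochondria to the autophagosome. It was at 21.9, 27.7 and 28.7 CPM in control libraries 1 to 3 and at 52.5, 58.7 and 61.5 CPM in the knockdown ones. That is 2.21-fold, a log2 fold change of 1.14 ± 0.10 (edgeR adjusted p = 1.29e-07), and 0.90 after the GC and length correction.

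SQSTM1, which encodes the receptor p62 and had the highest level of the 42 genes per kilobase of exon (67.8 CPM in the control), was at 532, 510.5 and 514 CPM in control libraries 1 to 3 and at 654, 655 and 641 CPM in the knockdown ones. It rose by 0.33 ± 0.03 (edgeR adjusted p = 2.29e-07), or by 0.53 after the GC and length correction. Exons of MGAT4B and MRNIP on the opposite strand cover 22.0% of its exon bases, and the strand setting of the counting is not given in the sources used here. The same limit holds for genes described above. Opposite-strand exons cover 28.1% of the exon bases of WIPI1, 19.2% of ATG101, 18.1% of ATG7 and 17.1% of BECN1. The effect on these counts was not tested. NBR1, a p62 partner, rose by 0.46 ± 0.07 from 50.9 ± 2.83 to 70.0 ± 2.38 CPM (SD, n = 3, edgeR adjusted p = 1.78e-05), or by 0.25 after the correction.

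OPTN, a receptor for damaged mitochondria, rose by 0.20 ± 0.07 from 47.6 ± 3.03 to 54.6 ± 0.934 CPM (SD, n = 3, edgeR adjusted p = 0.0229). Its call was lost without control library 2, control library 3 or knockdown library 3 (edgeR adjusted p = 0.067, 0.0627 and 0.063), and after the GC and length correction the value was -0.037 (adjusted p = 0.671). TAX1BP1 and the kinase TBK1, which phosphorylates several of these receptors, were not tested.

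Of the 3 mitophagy genes tested, 2 rose by small amounts and 0 fell. BNIP3L, also called NIX, is the receptor by which maturing red cells shed mitochondria. It rose by 0.30 ± 0.08 from 54.2 ± 3.56 to 66.6 ± 6.41 CPM (SD, n = 3, edgeR adjusted p = 0.00352), but stood at -0.070 after the GC and length correction (adjusted p = 0.371). BNIP3, its hypoxia-induced relative, rose by 0.18 ± 0.07 (edgeR adjusted p = 0.031). BNIP3 lost its call without control library 1 or any single knockdown library (edgeR adjusted p of 0.0521 to 0.0951) and with DESeq2 (adjusted p = 0.0574).

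PINK1, the kinase that marks depolarized mitochondria, was at 79.1, 71.5 and 76.4 CPM in control libraries 1 to 3 and at 69.1, 77.3 and 74.4 CPM in the knockdown ones (-0.04 ± 0.06, edgeR adjusted p = 0.584). Exons of PINK1-AS on the opposite strand cover 39.4% of its exon bases, so sense and antisense reads cannot be told apart without the strand setting. FUNDC1 was not tested.

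Ratios of 2 genes within a library do not depend on how libraries are scaled. The 5 pairs were chosen after the values were seen. GABARAPL1 counts were 0.417, 0.427 and 0.400 of those of MAP1LC3B in control libraries 1 to 3 and 0.838, 0.794 and 0.782 in the knockdown ones. GABARAPL2 counts were 0.490 ± 0.0157 of them in the control and 0.905 ± 0.0215 in the knockdown (SD, n = 3). Both ratios shifted toward the GABARAP genes in every library.

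The ratio of ATG14 to UVRAG was 0.852 ± 0.224 in the control and 1.29 ± 0.0677 in the knockdown, and that of ATG4B to ATG4D was 2.25 ± 0.157 and 1.59 ± 0.0773 (SD, n = 3). The ratio of CALCOCO2 to SQSTM1 was 0.0504 ± 0.0081 and 0.0886 ± 0.00786 (SD, n = 3). In each of the 5 pairs the groups did not overlap, and the two-sided exact permutation p was 0.1, the smallest that 3 against 3 allow (Benjamini-Hochberg adjusted p = 0.1). As the pairs were chosen by their values, the choice itself can set this outcome, and no conclusion is drawn from it. Of all genes tested, 72.1% had groups that did not overlap on their own.

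The 11 genes under the minimum were ULK2, RB1CC1, PIK3R4, ATG2B, ATG4A, ATG4C, MAP1LC3A, GABARAP, TAX1BP1, TBK1 and FUNDC1. ATG4A, a protease with a preference for GABARAP proteins, had the clearest difference. Its counts were 73, 50 and 66 in control libraries 1 to 3 and 195, 243 and 310 in the knockdown ones, so that every knockdown value lay above every control value by more than the largest added number. With the added numbers modelled it averaged 3.16 CPM without and 11.6 CPM with the knockdown, a log2 difference of 1.88 (95% interval 1.598 to 2.17).

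The knockdown counts of ATG4A, from 195 to 310, were themselves spread by more than the largest added number. For the other 10 too, values within at least 1 group lay about 100 counts apart, as far as the largest added number reaches. In MAP1LC3A the groups did not overlap (104 to 132 counts in the control, 136 to 249 in the knockdown), and in the rest they did. TBK1, for example, had counts of 65, 59 and 35 in control libraries 1 to 3 and 56, 161 and 50 in the knockdown ones, and the modelled difference was 0.20 (95% interval -0.18 to 0.57). RB1CC1 had 77, 134 and 150 in control libraries 1 to 3 and 209, 110 and 86 in the knockdown ones. GABARAP had 118, 147 and 86 in control libraries 1 to 3 and 66, 160 and 189 in the knockdown ones. For both of these the deposited values overlap between groups.

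The modelled differences rest on which values carry 100, and were not tested. They were 1.01 for RB1CC1 (95% interval 0.70 to 1.33), 0.97 for FUNDC1 (0.66 to 1.29), 0.38 for MAP1LC3A (0.14 to 0.63), -0.63 for GABARAP (-0.91 to -0.35) and -0.67 for ATG2B (-1.26 to -0.06). The means of the deposited values went the other way for GABARAP (6.20 CPM in the control, 7.53 in the knockdown) and ATG2B (1.68 and 2.87). For RB1CC1, FUNDC1 and MAP1LC3A they went the same way as the model. The intervals of ULK2, PIK3R4, ATG4C and TAX1BP1 included 0. Exons of other genes cover 30.5% of GABARAP's exon bases on the same strand and 25.2% on the opposite strand in GENCODE 29; the effect on its count was not tested.

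**Figure D5:**
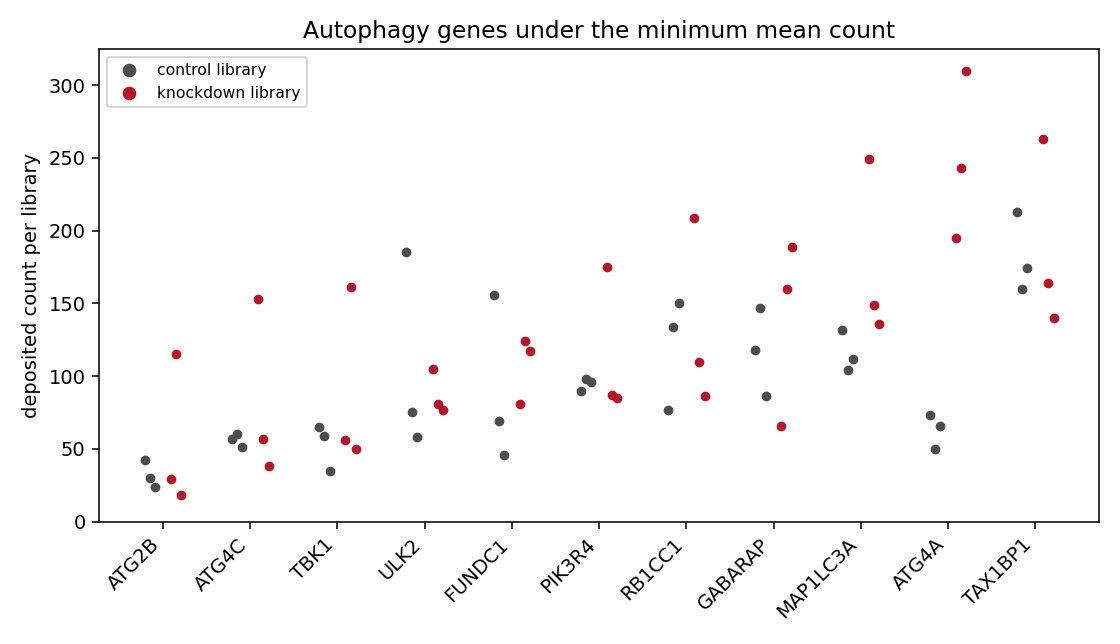
Deposited counts in each library of the 11 autophagy genes under the minimum mean of 200 counts, with control libraries in grey and knockdown libraries in red. ATG4A has all 3 knockdown values above all control values, from 195 to 310 against 50 to 73, while in genes such as TBK1 and ATG4C a single library stands about 100 counts above the rest.

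Further genes of the pathway were counted in 5 lists, which hold 95 genes, 63 of them tested. In these, 26 rose (41.3%) and 18 fell (28.6%), beside 34.1% and 34.4% of all genes tested, against which each count below can be read, and the median log2 fold change was 0.11. Among scaffolds and fusion machinery, 10 of 16 rose and 2 fell. VMP1, which remodels the membrane of the endoplasmic reticulum for the autophagosome, rose by 0.94 ± 0.07 (0.58 after the GC and length correction), RAB7A, the small GTPase of late endosomes, by 0.89 ± 0.04, and the tethering gene EPG5 by 0.75 ± 0.07. ATG16L2, the paralogue of ATG16L1, fell by 1.94 (SE 0.15) from 32.9 ± 3.37 to 8.57 ± 1.04 CPM (SD, n = 3), the opposite direction to ATG16L1. The edgeR adjusted p was 1.78e-08 or less for these genes, except 3.22e-07 for EPG5. ATG16L2 had 572, 597 and 706 counts in control libraries 1 to 3 and 173, 141 and 159 in the knockdown ones. Every control count lay above every knockdown count by more than the largest added number. ATG16L2 passed the minimum mean only through the control, and the largest added number can make up much of a knockdown count. The size of its decrease is therefore uncertain.

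Among upstream kinases and their regulators, 9 of 16 rose and 5 fell. MTOR, the kinase that restrains ULK1, rose by 0.94 ± 0.06 from 96.7 ± 8.29 to 185 ± 12.1 CPM (SD, n = 3). Its activator RHEB rose by 0.98 ± 0.06 and TSC1, which restrains RHEB, by 1.08 ± 0.09 (edgeR adjusted p of 4.89e-08 or less for the 3). PRKAG2, a subunit of the energy sensor AMPK, rose by 0.63 ± 0.17 (edgeR adjusted p = 0.0044). Of the 5 that fell, 2 encode partners of MTOR in its complex, named here after their values were seen. MLST8 fell by 0.63 (SE 0.07) and RPTOR by 0.43 (SE 0.04, edgeR adjusted p of 5.52e-07 or less for both), and after the GC and length correction they stood at -0.31 and -0.11, both past the threshold. The partners did not move together. AKT1S1, which also encodes a partner of MTOR, rose by 0.46 ± 0.05 (edgeR adjusted p = 5.43e-07), or by 0.72 after the correction. The partner gene DEPTOR was not tested.

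Receptors and adaptors outside the 42 had 3 of 13 higher and 5 lower. NIPSNAP1, a mitochondrial adaptor, fell by 1.39 (SE 0.10) and TEX264, a receptor for the endoplasmic reticulum, by 1.15 (SE 0.08). FKBP8 fell by 0.44 (SE 0.03), and by 0.081 after the GC and length correction, and PHB2 fell by 0.40 (SE 0.04), and by 0.23 after it. The edgeR adjusted p was 4.20e-07 or less for these 4 genes. The difference between these receptors and the 4 ubiquitin-binding receptors was not tested.

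Among TBK1 partners and ubiquitin enzymes, 2 of 9 rose and 4 fell. The kinase IKBKE fell by 1.17 (SE 0.25, edgeR adjusted p = 0.000675), RBCK1 by 0.72 (SE 0.08) and SHARPIN by 0.61 (SE 0.06, edgeR adjusted p of 5.91e-07 or less for both), the latter pair being subunits of the linear ubiquitin ligase. IKBKE had 314, 307 and 344 counts in control libraries 1 to 3 and 197, 99 and 120 in the knockdown ones. It passed the minimum mean only through the control, and its knockdown counts differed by about as much as the largest added number. The deubiquitinase CYLD rose by 0.77 ± 0.21 (edgeR adjusted p = 0.004). After the GC and length correction RBCK1 was at -0.39 and SHARPIN at -0.25, both past the threshold.

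Of 9 transcriptional regulators tested, 2 rose and 2 fell. MYC, which restrains autophagy and lysosome genes in some cells, fell by 0.94 (SE 0.04) and the stress factor ATF4 by 0.55 (SE 0.03, edgeR adjusted p of 1.21e-09 or less for both). DDIT3 rose by 0.81 ± 0.17 (edgeR adjusted p = 0.000535) and FOXO3 by 0.41 ± 0.10 (edgeR adjusted p = 0.00249). TFE3 did not pass (0.11, edgeR adjusted p = 0.0755; 0.36, adjusted p = 8.44e-06, after the GC and length correction), and TFEB, with a mean of 189 counts, was not tested.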

How the data were processed

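The authors deposited 1 table of counts per gene for 6 libraries, in columns named raw per the file headers. STAR, HTSeq, fastp, FastQC, R 4.3.3 and DESeq2 appear without their roles, beside the build GRCh38, per the submitters' processing notes. Annotation release, counting mode and strand setting: not given in the sources used here. In 35797 genes (57.9%) all 6 values were 0, 1, 2, 10 or 100, each making up 19.8% to 20.4% of them. The table thus behaves as counts plus a number drawn from those 5 (SD 38.9), added at an unknown step. Symbols were matched for 61757 genes. Coordinates, exon overlap, GC content and length are from GENCODE 29 on GRCh38, and promoters from RefSeq.

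Counts were fitted with edgeR 4.0.16 (TMM, robust quasi-likelihood F-test, no block) over the genes whose mean count reached 200, above the 100 that the added numbers alone can reach, and called at a Benjamini-Hochberg adjusted p under 0.05. Every one of the 42 genes is named. The value in each library is given for genes past the threshold with a log2 fold change of at least 0.5 in size and for some of those not past it. From each further list up to 4 genes with the largest called changes are named. The members, lists and rules were chosen with earlier results of these data known.

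Each value was also modelled as a negative binomial count (dispersion 0.00293) plus 1 of the 5 numbers, with 95% profile intervals. GC and length trends were removed per library with mgcv 1.9.3. The other alternatives were 3 other scalings, no filter, filterByExpr, a minimum mean of 500, DESeq2 1.42.0, limma-voom (limma 3.58.1), the replicate number as a block, and each library left out with the same genes tested. The edgeR fit and the model were tested on simulated data first. There 59, 67 and 74 of 7344 genes were changed by 0.3, 0.5 and 1 on the log2 scale. The edgeR fit recovered 40.7%, 71.6% and 100% of these. A gene that did not pass may therefore still have changed by a small amount. Protein sequences were not used here, and 1 gene of the marker lists is not reported here.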

Additional observations from a re-analysis of the deposited data

How the results depend on the processing

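The 42 autophagy genes gave 21 higher and 1 lower. Over the 17 alternatives chosen at the start, the number higher ran from 16 without a filter to 23 with library totals alone, and the number lower was 1 in all but the GC and length correction, where it was 2, ATG3 joining ATG4B. Leaving out 1 library gave 19 to 21 higher and 1 lower, 20 to 22 in all, and 4696 to 4852 of all genes against 5027. Of the 22 calls, 14 held in every alternative that gave the gene a value. Those lost in at least 1 were ATG12, ATG14, ATG7, BNIP3, BNIP3L, OPTN, PIK3C3 and WIPI2, and 6 of these 8 (all but ATG12 and BNIP3L) were lost without a filter. After the GC and length correction BNIP3L was at -0.070 and OPTN at -0.037, neither past the threshold, which turned their direction; the cause was not tested. Deviations of same-numbered libraries had correlations of 0.0563, -0.00311 and -0.0197, so the numbers do not pair them; only those numbered 1 matched best with each other. With the replicate block, 22 autophagy genes were higher, 1 was lower and 5103 of all genes passed. Counting only genes with a mean of at least 200 in both groups, an alternative chosen after the values were seen, gave 20 higher and 1 lower. Depth limits most the 11 genes under the minimum mean, where an added 100 can be a large part of a count.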
